A study of Mus musculus with 3 samples.

Results

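This report describes EZH2 occupancy at 10 genes of the Bcl2 family, which control the mitochondrial route of programmed cell death, in mouse bone marrow-derived macrophages. The genes were 3 pro-survival genes (Bcl2, Bcl2l1 and Mcl1), the effectors Bax and Bak1, and 5 BH3-only genes (Bbc3, Bcl2l11, Pmaip1, Bid and Bad), out of 21887 protein-coding genes. For each gene, every called interval of the LPS and NT libraries that touched the gene or the 10 kb on either side of it was taken. These windows held 4 of 4651 LPS intervals and 17 of 9643 NT intervals. The genes were chosen by name, and the family was selected on earlier results of these data, which were the called intervals and summit values of these windows, among them the low LPS to NT ratio at Bbc3. The values of the members are therefore descriptions.

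Marrow cells of adult C57BL/6 mice had been grown into macrophages in medium containing M-CSF, the growth factor of this lineage. The cells were stimulated for 2 h with LPS, a bacterial cell wall component sensed by Toll-like receptor 4, or left non-treated (NT). DNA bound by EZH2 was then pulled down with an antibody and sequenced (ChIP-seq), which gave 1 library per condition. How many mice went into a library is not given in the labels, and the macrophage identity of the cells could not be checked against marker genes because no RNA was measured. With 1 library per condition no difference between LPS and NT could be tested.

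EZH2 is the catalytic subunit of polycomb repressive complex 2, which methylates lysine 27 of histone H3 and is best known for silencing developmental genes. In the Bcl2 family, Bax and Bak1 open the outer mitochondrial membrane and so release cytochrome c, which starts the caspase cascade. Bcl2, Bcl2l1 (Bcl-xL) and Mcl1 hold these effectors in check, and the BH3-only proteins relay damage or starvation signals by binding the pro-survival proteins and, in part, the effectors.

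Each interval comes with 1 value, which the authors deposited for its highest point and which is called its summit value. The unit, the read depth and any scaling between the libraries are not given in the sources used here. Over the whole lists, values ran from 7 to 100 (median 16) in LPS against 11 to 253 (median 27) in NT. Whether a lower LPS value or a missing LPS interval at a gene reflects less bound EZH2 or a shallower library cannot be told apart.

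The sequence before the annotated start is shown for 4 members that differ in the intervals called there. Mcl1 was the only member with an interval of both libraries at its promoter, Bcl2 and Bax stand for the members with NT intervals alone there, and Bid had none. Each line gives the 250 bases before the annotated start from RefSeq (GRCm38.p6, the assembly of mm10), 5′ to 3′ on the strand of the gene, with CpG dinucleotides in capitals. The stretches lie at chr3:95658471-95658720 on the plus strand for Mcl1, and on the minus strand at chr1:106714291-106714540 for Bcl2, chr7:45466899-45467148 for Bax and chr6:120916825-120917074 for Bid. The gene records of Mcl1, Bax and Bid reach further upstream than the start used, to 95656944, 45466903 and 120917062. The Mcl1 stretch thus lies wholly, and those of Bax and Bid partly, within the gene record.
Mcl1: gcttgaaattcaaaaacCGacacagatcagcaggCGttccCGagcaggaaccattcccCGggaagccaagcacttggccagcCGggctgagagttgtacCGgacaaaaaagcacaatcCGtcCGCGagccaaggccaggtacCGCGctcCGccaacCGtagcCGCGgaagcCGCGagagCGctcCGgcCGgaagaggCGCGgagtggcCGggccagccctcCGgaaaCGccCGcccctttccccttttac
Bcl2: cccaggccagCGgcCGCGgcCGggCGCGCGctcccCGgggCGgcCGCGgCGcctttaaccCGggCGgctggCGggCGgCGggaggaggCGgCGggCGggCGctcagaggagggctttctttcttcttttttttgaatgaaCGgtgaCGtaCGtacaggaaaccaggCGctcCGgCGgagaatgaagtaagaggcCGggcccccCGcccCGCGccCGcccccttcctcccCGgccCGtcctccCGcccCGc
Bax: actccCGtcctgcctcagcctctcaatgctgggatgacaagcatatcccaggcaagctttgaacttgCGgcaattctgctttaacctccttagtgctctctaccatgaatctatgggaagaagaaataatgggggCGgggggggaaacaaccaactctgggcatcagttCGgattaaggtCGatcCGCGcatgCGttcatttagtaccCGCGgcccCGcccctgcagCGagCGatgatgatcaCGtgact
Bid: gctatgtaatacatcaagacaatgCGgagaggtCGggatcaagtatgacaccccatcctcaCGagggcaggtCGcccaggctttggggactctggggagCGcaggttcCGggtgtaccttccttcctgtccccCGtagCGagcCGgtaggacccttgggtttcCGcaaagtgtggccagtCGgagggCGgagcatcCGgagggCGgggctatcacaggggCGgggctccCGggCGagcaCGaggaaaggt
Of these 250 bases, LPS and NT intervals both covered all 250 at Mcl1. No LPS interval covered any base at Bcl2, Bax or Bid, and NT intervals covered 24 bases at Bcl2, those next to the start, 250 at Bax and 0 at Bid. The number of CpG dinucleotides in the 250 bases was 26 for Mcl1, 36 for Bcl2, 14 for Bax and 18 for Bid.

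NT intervals were called at more members than LPS intervals were. An LPS interval lay in the window of 3 members (Mcl1, Bbc3 and Bad), where 21.2% of all protein-coding genes had one. An NT interval lay in the window of 9 members, all but Bid, where 46.0% of all protein-coding genes had one and 53.3% had no interval of either library. Intervals of both libraries lay in the windows of 3 members, against 20.6% of all genes. Of the genes with an NT interval, 44.8% also had an LPS interval, and of the 9 members 3 did. No member had an LPS interval alone, which 0.635% of all genes had, and 6 members had an NT interval alone (Bcl2, Bcl2l1, Bax, Bak1, Bcl2l11 and Pmaip1), against 25.4% of all genes. These counts rest on the longer NT list. With the highest 4651 NT intervals alone, as many as LPS had, 4 members had an NT interval, against 26.0% of all genes, and 1 (Bcl2l11) had an NT interval alone, against 9.31%. Summit values of the family ran from 11 to 39 (median 14) in LPS and from 15 to 74 (median 24) in NT, with both medians below those of the whole lists.

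**Figure D1:**
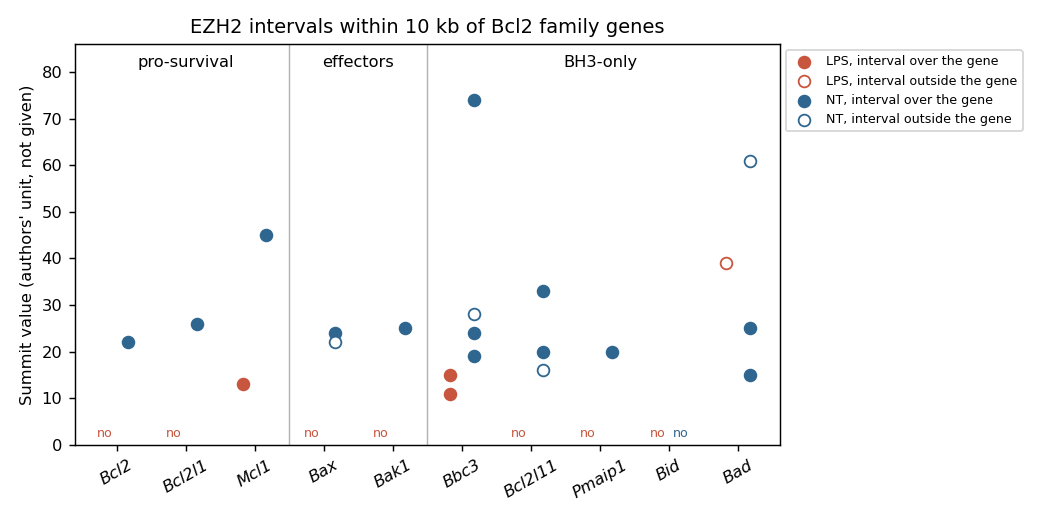
Summit value (vertical axis, the authors' unit, which is not given) of each EZH2 interval within 10 kb of the 10 members, with LPS left of NT for each gene. Filled dots are intervals over the gene, open dots lie outside it, and "no" marks a library without an interval. LPS dots appear at Mcl1, Bbc3 and Bad, and most NT dots lie between 15 and 33.

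Among the pro-survival genes, intervals of both libraries were called at Mcl1 alone. Mcl1 encodes a short-lived protein that many blood cells need to survive. The LPS interval at Mcl1 (chromosome 3, 95658311 to 95659015, mm10) had a summit value of 13, and the NT interval (95658275 to 95659982) had 45. Both covered the annotated start used here, at 95658721. Neither reached the upstream end of the gene record, at 95656944. The LPS interval was 705 bp wide and lay inside the NT interval of 1708 bp, which reached 1261 bp past the start. The LPS summit lay 160 bp before the start and the NT summit 64 bp after it, 224 bp apart.

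The ratio of LPS to NT summit value at Mcl1 was 0.289. The median over all 4027 regions with an interval in both libraries was 0.5, with the central 95% between 0.282 and 0.824, and 2.93% of these regions had a lower ratio than Mcl1. Among 649 shared regions whose NT value was within 5 of the Mcl1 value, the median ratio was 0.475 and 55, Mcl1 included, had a ratio as low or lower. Were a summit value a count of independent reads, which is not known, counting error alone would give an exact 95% interval of 0.143 to 0.545 for this ratio, which takes in the median.

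The other pro-survival genes had no LPS interval and 1 NT interval each. Bcl2, the founding member of the family, spans 176115 bp on chromosome 1 (106538176 to 106714290) and had a single NT interval, at its start, from 106713399 to 106714314 with a value of 22. The nearest LPS interval to Bcl2 was 364761 bp away. At Bcl2l1 (chromosome 2, 152758732 to 152833803) the NT interval ran from 152830762 to 152831916 with a value of 26. It covered the most upstream of the 3 annotated starts used here, with its summit 303 bp after that start, and reached into the promoter of the middle one. The upstream end of the gene record, at 152833803, had no start among these and lay outside the interval. The nearest LPS interval to Bcl2l1 was 108192 bp away.

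The effectors Bax and Bak1 gave nearly the same picture. Bax (chromosome 7, 45461695 to 45466903) had no LPS interval and an NT interval over its start, from 45466056 to 45467245, with a value of 24 and a summit 145 bp after the start. Bak1 (chromosome 17, 27019812 to 27028627) had no LPS interval and an NT interval from 27028005 to 27029038, with a value of 25 and a summit 146 bp after its start. Bak1 lies within the span of Ggnbp1 on the other strand, and no start of Ggnbp1 lay in that interval. A second NT interval in the Bax window, from 45458840 to 45460528 with a value of 22, had its summit 19 bp from the start of Ftl1, the ferritin light chain gene, and 6993 bp from that of Bax.

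**Figure D2:**
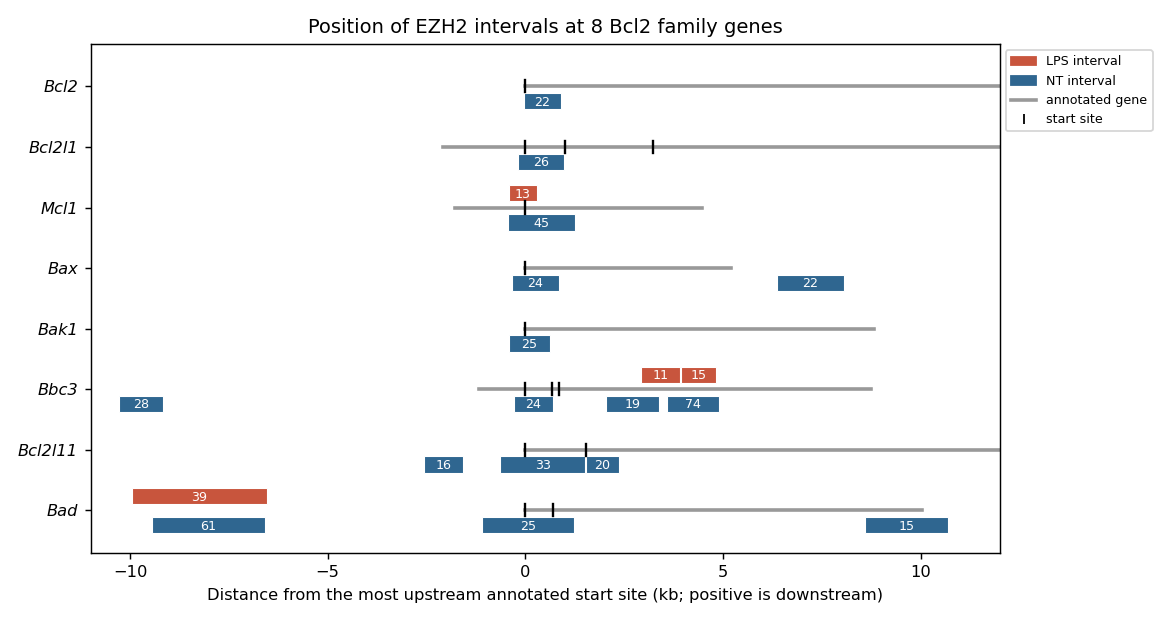
Position of LPS (above the gene line) and NT intervals (below it) at 8 members, in kb from the most upstream annotated start used, with the summit value printed on each interval and gene lines cut at the axis limits. NT intervals sit over a start site at all 8 genes, an LPS interval does so at Mcl1 alone, and the strongest Bbc3 intervals lie inside the gene. Pmaip1, for which no start site was used, and Bid, which had no interval, are left out.

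Bbc3 (PUMA), a BH3-only gene induced by p53, had the highest NT value among the members, inside the gene and not at its start. Bbc3 spans 16308398 to 16318334 on chromosome 7, with annotated starts at 16309583, 16310261 and 16310431. The strongest NT interval, from 16313158 to 16314477, had a value of 74, above 95.4% of all NT intervals. The LPS interval there, from 16313527 to 16314414, had a value of 15, above 40.3% of all LPS intervals. The LPS and NT summits were 64 bp apart, the LPS one 3362 bp and the NT one 3426 bp downstream of the nearest start.

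Next to it, a second LPS interval (16312519 to 16313506, value 11) overlapped both that NT interval and a weaker one (16311613 to 16312977, value 19). The authors' merged track joins these 4 intervals into 1 region of 2865 bp. The LPS to NT ratio of this region was 0.203, and 6 of the 4027 shared regions had a lower one. Of 182 shared regions whose NT value was within 5 of the Bbc3 value, which had a median ratio of 0.493, no other had a ratio as low. Under the same assumption on reads, the exact 95% interval would be 0.108 to 0.356. This low ratio was among the values on which the family was selected, so its rank is a description only. The interval does not allow for that selection.

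At the Bbc3 starts there was no LPS interval, and an NT interval from 16309285 to 16310284 with a value of 24 covered 2 of the 3 starts. A further NT interval, from 16299302 to 16300411, lay 7987 bp before the gene with a value of 28 and met no LPS interval. The LPS library thus had intervals at the inner site of Bbc3, and the NT library there, at the starts and upstream.

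**Figure D3:**
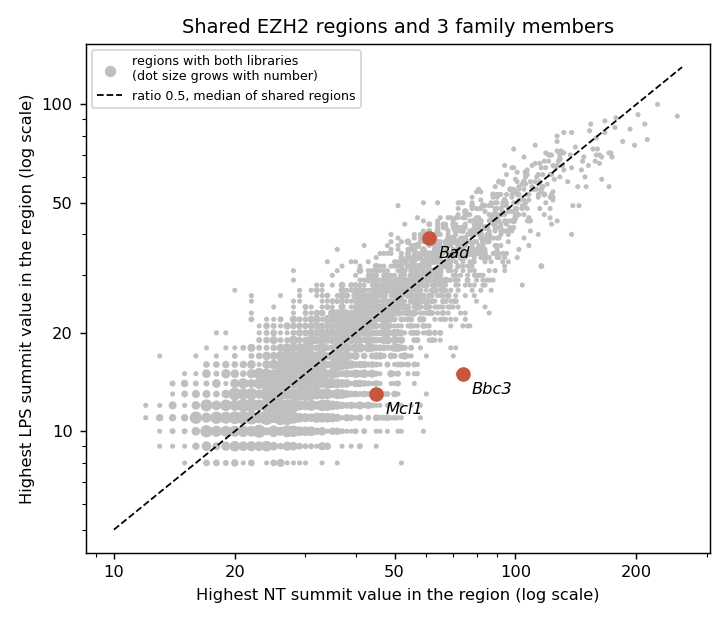
Highest LPS summit value against highest NT summit value in the 4027 regions with intervals of both libraries, both axes on a log scale, with the 3 regions in windows of members in red. Mcl1 (13 against 45) and Bbc3 (15 against 74) lie under the dashed line at the median ratio of 0.5, and the Bad region (39 against 61) lies above it.

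Bcl2l11 (BIM), a BH3-only gene that limits the lifespan of many blood cells, had no LPS interval and 3 NT intervals around its starts. Bcl2l11 spans 128126038 to 128162547 on chromosome 2. The NT interval over its first start, from 128125398 to 128127558, had a value of 33 and a width of 2161 bp, with a summit 43 bp after the start. Of 2425 NT intervals with a value within 5 of it, 47.3% met an LPS interval, and of the 532 among them that were 2 kb or wider 83.8% did (95% Wilson interval 80.5 to 86.7%), while the one at Bcl2l11 did not. Bad had 2 other NT intervals of 2 kb or wider with no LPS partner, at values of 25 and 15. Of NT intervals of like value that were 2 kb or wider, 71.3% and 49.5% had one. Of those of any width, 29.3% and 17.8% did. The class of 2 kb or wider has no upper limit and also holds much wider intervals. The member intervals were close to its lower limit, with 2161 bp at Bcl2l11 and 2324 and 2093 bp at Bad. The nearest LPS interval to Bcl2l11 was 395112 bp away. A second NT interval, from 128127567 to 128128415 with a value of 20, covered the other start, and one more, from 128123483 to 128124471 with a value of 16, lay 1567 bp before the gene. Acoxl, a neighbouring gene on the same strand, ends within Bcl2l11, so the first NT interval also covered its end.

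Pmaip1 (NOXA), a BH3-only gene that binds Mcl1, had no LPS interval and 1 NT interval, from 66458128 to 66459101 on chromosome 18, with a value of 20. It covered the lower-coordinate end of the gene (66458604 to 66465558). The nearest LPS interval was 166350 bp away, with a value of 14. Bid, which links death receptors to mitochondria once it is cut by caspase 8, had no interval of either library in its window. Bid spans 120893119 to 120917062 on chromosome 6. The nearest intervals of both libraries were those at the start of its neighbour Bcl2l13, 56602 bp away in LPS with a value of 10 and 56337 bp away in NT with a value of 33.

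Bad, a BH3-only gene regulated by growth factor kinases, lies in a dense stretch of chromosome 19 (6941861 to 6951905). The LPS interval in its window, from 6931909 to 6935317, had a value of 39, and the NT interval from 6932404 to 6935277 had 61. Their summits lay 626 bp (LPS) and 562 bp (NT) from the start of Kcnk4, a potassium channel gene, and 7972 and 7908 bp from the nearest start of Bad. The ratio of this region was 0.639, above 84.5% of the shared regions. Under the assumption on reads its interval was 0.416 to 0.971, which takes in the median of 0.5 over all shared regions. The ratio takes the values as deposited. Divided by the library median or by the median over shared regions, they gave ratios of 1.08 and 1.35, so that whether LPS or NT was higher at this region turns with the scaling. Over Bad itself there was no LPS interval. An NT interval from 6940766 to 6943089 with a value of 25 covered both starts of Bad and the starts of Gpr137 on the other strand, and an NT interval from 6950461 to 6952553 with a value of 15 covered the end of Bad. Without the intervals nearest to Kcnk4 and Ftl1, 2 members had an LPS interval and 7 an NT interval alone. The Pmaip1 interval was kept unchecked, since no start on chromosome 18 was among those used. The neighbouring genes Cox4i2 (at Bcl2l1), Dhdh (at Bax) and Sae1 (at Bbc3) had no start among them either. An interval could thus not be found nearest to these genes.

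The intervals closest beyond the 10 kb limit lay near Bad and Bbc3. On the side of Bad these were an LPS interval 13372 bp from the gene with a value of 24 and an NT interval at 13154 bp with a value of 44. Both overlapped Kcnk4. Near Bbc3 it was an NT interval at 12801 bp with a value of 22. Just inside the limit lay the LPS interval near Kcnk4, 6544 bp from Bad, and the NT interval 7987 bp before Bbc3.

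All 4 LPS intervals of the family met an NT interval, as did 94.1% of all LPS intervals. Of the 17 NT intervals 4 met an LPS interval (23.5%), against 43.2% of all NT intervals. The 13 without a partner had values of 15 to 33 (median 24). Of all 6562 NT intervals in that range of values, 28.3% met an LPS interval. Up to a value of 20, 1 of 5 member intervals had a partner, where 17.8% of all 2324 NT intervals did. Over 20 and up to 25, 0 of 6 did, where 25.4% of 2090 did. At values over 40, all 3 member intervals had a partner, as did 81.8% of 696 intervals over 40 and up to 50 and 96.2% of 720 over 50 and up to 75. Over 25 and up to 30, 0 of 2 did, where 36.8% of 1693 did, and over 30 and up to 40 the single member interval, at Bcl2l11, had none, where 54% of 1710 did.

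**Figure D4:**
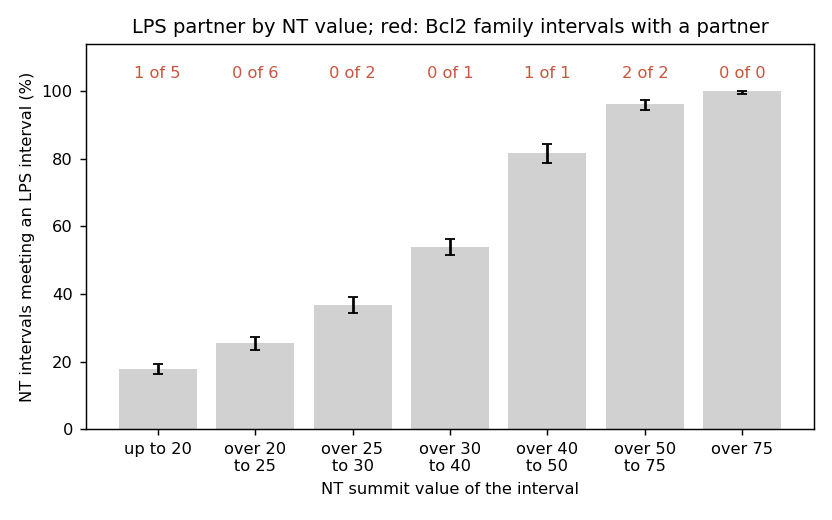
Share of all NT intervals that met an LPS interval (bars, %) by NT summit value, with 95% Wilson intervals as error bars, and above each bar in red the number of member intervals with a partner out of those in the band. The share climbs from 17.8% up to a value of 20 to all intervals over 75, and 14 of the 17 member intervals lie at values of 40 or less.

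At the promoters, taken as 250 bases before to 50 after each annotated start, 15 promoters of 9 members were in the RefSeq table. This table was incomplete. It held promoters of 17492 of the 21887 protein-coding genes, and none for Pmaip1 or any other protein-coding gene on chromosome 18. An LPS interval touched a promoter of 1 of the 9 members (Mcl1), against 12.7% of 17492 protein-coding genes. An NT interval touched a promoter of 8 of the 9, against 33.8%. Of the 5910 genes with an NT interval at a promoter, 36.2% also had an LPS interval there, and of the 8 members 1 did. The 9 NT intervals over member promoters had values of 20 to 45 (median 25).

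Most member promoters were rich in CpG. This is not independent of how the family was selected, since promoters with a called interval were richer in CpG across the genome. CpG content was measured as the ratio of observed to expected CpG, which is 1 where CpG is as frequent as the base composition predicts. The median ratio was 0.771 over the 15 member promoters, ranging from 0.0558 at the most downstream start of Bcl2l1 to 1.07 at its most upstream start. Over all 21263 promoters the median was 0.567. It was 0.778 where both libraries had an interval, 0.821 where NT alone had one and 0.335 where neither had. Mcl1 and Bcl2 both had 1.02, above 93.6% and 93.2% of all promoters. The promoter of Bid, with a ratio of 0.75, was CpG-rich and without an interval.

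A ratio of at least 0.6 was found in 10137 of all 21263 promoters and in 13 of the 15 member promoters. Among these 10137 promoters, an LPS interval touched 19.4% and an NT interval 56.2%. Of the 13 member promoters at or above that limit, an LPS interval touched 1 and an NT interval 12. Several of these promoters belong to the same gene and share an interval. Of the 2 below the limit, the Bak1 promoter with 0.435 had an NT interval and the most downstream one of Bcl2l1 had none.

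**Figure D5:**
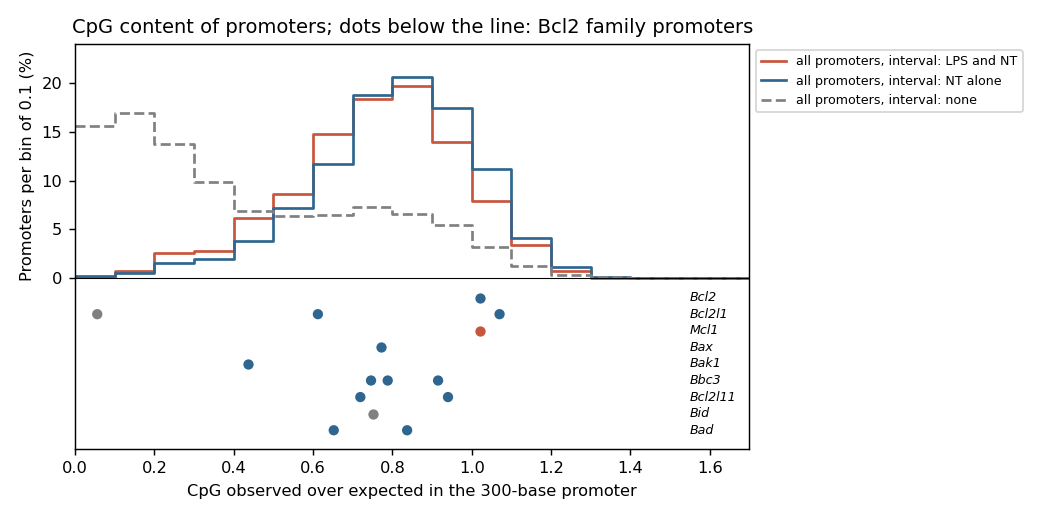
Distribution of the observed over expected CpG ratio in 300-base promoters with an interval of both libraries (red), of NT alone (blue) or of neither (dashed grey), in % of each class per bin of 0.1, with the 15 member promoters as dots below the line in the same colours. Mcl1 is the single red dot, and 13 of the 15 dots lie at 0.6 or higher.

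Short motifs were searched in the same promoters on both strands. The GC box GGGCGG, a site of Sp1-type factors that itself holds a CpG, was found in 10 of the 15 member promoters and in 46.2% of all promoters. At least 1 copy stood in the promoters of Mcl1, Bcl2, Bax and Bid. The CCAAT box CCAAT was found in 4 member promoters and in 38.2% of all, and TATAAA in 0 and 12.6%. The NF-kB consensus motif was found in 2 member promoters, the most upstream one of Bbc3 and the middle one of Bcl2l1, and in 9.25% of all. A match describes the letters only, and matches of one motif can overlap each other. The 15 member promoters belong to 9 genes, and the Bbc3 promoters at the starts 16310261 and 16310431 overlap, so they are not separate units.

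Other genes of cell death, in 5 lists with 45 genes, had LPS intervals at 12 genes (26.7%, against 21.2% of all protein-coding genes). NT intervals lay at 24 (53.3%, against 46.0%), of which 12 had NT intervals alone (26.7% of the 45, against 25.4%). LPS intervals alone lay at 0 (against 0.635%). These shares were near those of all genes. Among the 15 other Bcl2 family genes none had an NT interval alone, and each of the 5 with an interval had one in both libraries. These were the BH3-only genes Hrk (38 in LPS and 71 in NT) and Bik (30 and 55), the effector-like Bok (19 and 47), Bcl2l2, which encodes pro-survival Bcl-w (17 and 27), and Bcl2l13 (10 and 33). The pro-survival genes Bcl2a1a, Bcl2a1b and Bcl2a1d, near-identical copies known as NF-kB targets, had no interval of either library, and neither had the BH3-only gene Bmf. Whether reads could be placed at a single one of these copies cannot be told from the intervals. The missing intervals there therefore do not show that EZH2 is absent.

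Of 12 caspase and apoptosome genes, 2 had an LPS interval and 8 an NT interval. Of all protein-coding genes 21.2% had an LPS and 46.0% an NT interval, also for comparison with the lists below. Those with both were Diablo, which encodes an antagonist of inhibitors of apoptosis (24 in LPS and 30 in NT), and Htra2 (15 and 35), while Casp6 and Casp9 had NT intervals alone (28 each). The apoptosome genes Apaf1 and Cycs had none. Of 5 inhibitors of apoptosis, 1 had an LPS interval (Cflar, a caspase 8 inhibitor, 8 in LPS and 29 in NT) and 4 an NT interval, among them Birc2 and Birc3, which neighbour each other (34 for both). Of 7 death receptor and adaptor genes, 1 had an LPS interval (Tradd, 18 in LPS and 33 in NT) and 2 an NT interval, the other being Ripk1 (31). Of 6 upstream regulators, 3 had an LPS interval and 5 an NT interval, with Trp73, a p53 relative, at 56 in LPS and 117 in NT, Cdkn1a at 16 and 27, Mdm2 at 17 and 23, and Foxo3 at 31 in NT alone. Trp53 had no interval of either library.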

How the data were processed

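EZH2 ChIP-seq intervals of an LPS and an NT library were analysed, and the input library was not used here. BWA, SICER and the build mm10 are named, per the submitters' processing notes, without version or role. The score used is the summit value as the authors deposited it, and depth, duplicate handling, use of the input and scaling are not given in the sources used here. Positions come from a deposited BED file and are printed 1-based. The track assigned to the LPS sample is named TLR, after the receptor family of LPS, and was the only stimulated EZH2 track, a limit on every LPS value.

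Gene positions and promoters came from RefSeq tables of GRCm38.p6. Overlaps of at least 1 bp and ratios were computed with Python 3.11.15, pandas 2.3.3 and scipy 1.17.1, and tested on simulated data. Wilson intervals cover counting error only. The members and lists were chosen with earlier results of these data known, and comparisons by width and CpG content were added after values were seen. The text names every member, genes nearer to an interval than the member, and, of the other lists, genes with an LPS interval or a high NT value. Bcl2a1a, Bcl2a1b, Bcl2a1d, Bmf, Apaf1, Cycs and Trp53 were named after their values were seen. No test was possible with 1 library per condition.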

Additional observations from a re-analysis of the deposited data

How the results depend on the processing

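No paired analysis was possible because there was a single library for LPS and for NT. Under the alternatives, 85 of 99 values remained within 1.5 times the reported count or ratio, or inside the 95% Wilson interval of the reported share, and 14 did not. None of the windows of 2.5, 5 or 20 kb, the gene body alone, summits in place of overlaps, merging of intervals under 2 kb apart, an overlap of 50% of the shorter interval or leaving out intervals nearest to another gene, an alternative chosen after the data were seen, moved a value past these limits. With counts this small these limits are loose. In windows of 2.5 or 5 kb and in the gene body alone, 2 members had an LPS interval in place of 3, which lies on the limit. The member lost was Bad, and 7 in place of 6 members then had an NT interval alone. The 20 kb window gave a median ratio over the shared regions of 0.417 in place of 0.289. Stricter lists hold fewer intervals by construction. Keeping the upper part of each list, from its own median value on, 1 member had an LPS interval (Bad), 4 had an NT interval (Bcl2l11, Mcl1, Bbc3 and Bad), 1 had both and 3 had NT alone, where 12.8%, 26.9% and 14.8% of all genes had an LPS, an NT or an NT interval alone, and the median ratio over the shared regions was 0.639, from Bad alone. When only the highest 4651 NT intervals were kept, as many as LPS had, the same 4 members had an NT interval, against 26.0% of all genes, 1 had NT alone (Bcl2l11), against 9.31%, and 60% of 5 NT intervals met an LPS interval, against 65.6% of all 4651. No member had an LPS interval alone in either case. Values divided by the median of their library gave ratios of 0.487 at Mcl1, 0.342 at Bbc3 and 1.08 at Bad, and divided by the median over shared regions 0.612, 0.429 and 1.35. The region at Bad therefore lies below or above 1 by the scaling, which is unknown. Depth is unknown, so an interval missing from a list is a value under an unknown limit and does not show that EZH2 is absent.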
